A study of Mus musculus with 28 samples.

Results

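The 9 genes described here are 6 transcription factors that drive or mark the mesenchymal state (Snai1, Snai2, Zeb1, Zeb2, Twist1 and Twist2), the mesenchymal homeobox gene Prrx1, and the genes for N-cadherin (Cdh2) and vimentin (Vim). They were chosen by name, with earlier results of these data known, and are 9 of the 50600 genes of the deposited RNA-seq table. All 9 had a mean value of at least 1 over the 28 libraries and entered the tests. MEFs are primary mouse embryonic fibroblasts. By the study's methods they were taken at E13.5 from crosses of OG2 males, which carry a GFP transgene driven by the Oct4 promoter, with 129 females, and the labels give their genotype as WT. All groups share this background. The 14 groups hold 2 libraries each: MEFs without treatment, p38i-treated MEFs, and DMSO, p38i and pre-p38i cultures sampled at 4 times after the start of induction (days 1, 3, 5 and 7). Induced cells carried retroviral Oct4, Klf4 and Sox2 (OKS) and were kept in the serum-free medium iCD1. p38i is SB203580, an inhibitor of the p38 MAP kinases, and was present during induction in p38i and before it in pre-p38i. The labels call the DMSO libraries controls and name no DMSO. Each library is of a whole culture, in which only some cells reprogram, and the labels do not say that replicates came from separate cultures, so p-values measure only the spread between these libraries.

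During an epithelial-mesenchymal transition, factors of the Snail, ZEB and Twist families bind E-box sequences and repress epithelial genes such as Cdh1, which encodes E-cadherin, and cells gain N-cadherin and vimentin. Fibroblasts are mesenchymal cells. When OKS turn them into induced pluripotent stem cells, which are epithelial, an early step runs the other way and is known as the mesenchymal-epithelial transition (MET).

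Of the genes, 3 are shown with the 250 bases before their RefSeq start (GRCm38.p6, 5′ to 3′). They were picked because the Twist paralogues moved in opposite directions between MEFs and day 1 and Snai1 showed the widest range of levels. Capitals mark an E-box, CANNTG.
Twist1, chr12:33957421-33957670, plus strand: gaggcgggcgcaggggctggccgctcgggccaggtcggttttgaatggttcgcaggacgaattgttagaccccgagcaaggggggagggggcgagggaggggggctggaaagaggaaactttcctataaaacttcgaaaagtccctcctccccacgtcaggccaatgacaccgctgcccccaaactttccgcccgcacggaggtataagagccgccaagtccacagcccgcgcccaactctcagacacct
Twist2, chr1:91801211-91801460, plus strand: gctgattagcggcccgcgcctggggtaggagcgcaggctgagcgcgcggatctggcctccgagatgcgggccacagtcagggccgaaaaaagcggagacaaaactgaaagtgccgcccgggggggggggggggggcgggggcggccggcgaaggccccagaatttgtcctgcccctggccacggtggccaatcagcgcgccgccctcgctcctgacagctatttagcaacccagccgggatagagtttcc
Snai1, chr2:167537945-167538194, plus strand: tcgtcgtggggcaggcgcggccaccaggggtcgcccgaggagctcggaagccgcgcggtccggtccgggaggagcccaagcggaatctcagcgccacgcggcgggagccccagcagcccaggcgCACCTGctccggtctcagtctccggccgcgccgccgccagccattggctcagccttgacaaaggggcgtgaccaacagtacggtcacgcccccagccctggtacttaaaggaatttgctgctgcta
The Snai1 window holds 1 E-box, of the form CACCTG, which lies 126 bases before the start. CAGGTG or its complement CACCTG was found in 17.2% of 32851 such windows, and CANNTG, which includes both, in 66.2%. No CANNTG is in the windows of Twist1 and Twist2. The Twist1 window has 1 match to TATAAA or its complement TTTATA, found in 12.4% of windows, and 1 match to GGGCGG or its complement CCGCCC, found in 32.7%. Twist2 has 4 matches to the latter. These are matches of letters and were not tested for binding.

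Values are whole numbers that sum to between 991287 and 992537 per library and are read as TPM, a transcript's share of its library, rounded down. TPM is corrected for gene length, so levels of different genes can be compared. Read numbers are unknown, so counting error cannot be given. Libraries held 12454 to 14170 genes at 1 or more. Replicates correlated at r = 0.982 to 0.991. Differences were tested with limma on log2(value + 1) across 13230 genes, with all 14 groups in one fit, and a gene is called at a Benjamini-Hochberg adjusted p under 0.05. Changes of weakly expressed genes are understated on this scale. For one gene, exact permutation of 2 libraries against 2 cannot reach a p below 0.333. A log2 difference below is always on this scale and a level is always in TPM.

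The starting cells expressed all 9 genes, and most were lower by day 1 of induction. By the study's methods, cells were plated and infected before induction started, and no library was taken between MEFs and day 1. Differences between MEFs and induced cells therefore span infection as well as induction. MEFs also held 8 of 9 fibroblast markers at a mean of at least 1. Lum was at 0 in MEFs, and the markers' summed level was 7399 to 7585. From MEFs to day 1 in DMSO, 1 gene was higher (Twist1) and 6 were lower (Twist2, Zeb1, Zeb2, Snai1, Snai2 and Vim), where 36.6% of all tested genes were called higher and 18.9% lower. By day 7 in DMSO, Twist1 was the 1 gene above MEFs and the other 8 were below them (all genes: 43% higher, 23.8% lower). On day 7 in p38i, Twist1 and Cdh2 were above MEFs and 7 genes were below (all genes: 43.1% higher, 26% lower). On day 7 in pre-p38i all 9 were below MEFs (all genes: 48.2% higher, 22.7% lower). With only the groups compared in the fit, Zeb1 (adjusted p = 0.0534) and Vim (adjusted p = 0.0784) lost their calls on day 1 in DMSO, and Twist1 (adjusted p = 0.0629) lost its call on day 7 in pre-p38i. The median log2 difference of the 9 genes from MEFs on day 7 was -1.48 in DMSO, -0.97 in p38i and -1.79 in pre-p38i, against medians of 0.20, 0.21 and 0.29 over all tested genes. These comparisons share the MEF libraries.

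The course from day 1 to day 7 also differed. In DMSO all 9 genes fell (all genes: 28.4% higher, 26.1% lower), and in pre-p38i all 9 fell (all genes: 36.1% higher, 27.5% lower). In p38i, 6 fell, Cdh2 rose, and Zeb1 and Zeb2 were not called (all genes: 32.8% higher, 22% lower). In p38i Twist1 fell by 0.17, a call that was lost without p38i replicate 1 (-0.15) or replicate 2 (-0.19) on day 1 or p38i replicate 1 on day 7 (-0.14), with the replicate block (adjusted p = 0.0519) and after quantile normalization (adjusted p = 0.0874). In pre-p38i, the call of Zeb2 (-0.47) was lost without replicate 2 on day 1 (-0.29) or replicate 1 on day 7 (-0.40), and that of Snai1 (-0.74) without replicate 2 on day 7 (-0.58). With only the groups compared in the fit, Zeb1 was no longer called in DMSO (adjusted p = 0.0683) nor Zeb2 in pre-p38i (adjusted p = 0.115).

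**Figure D1:**
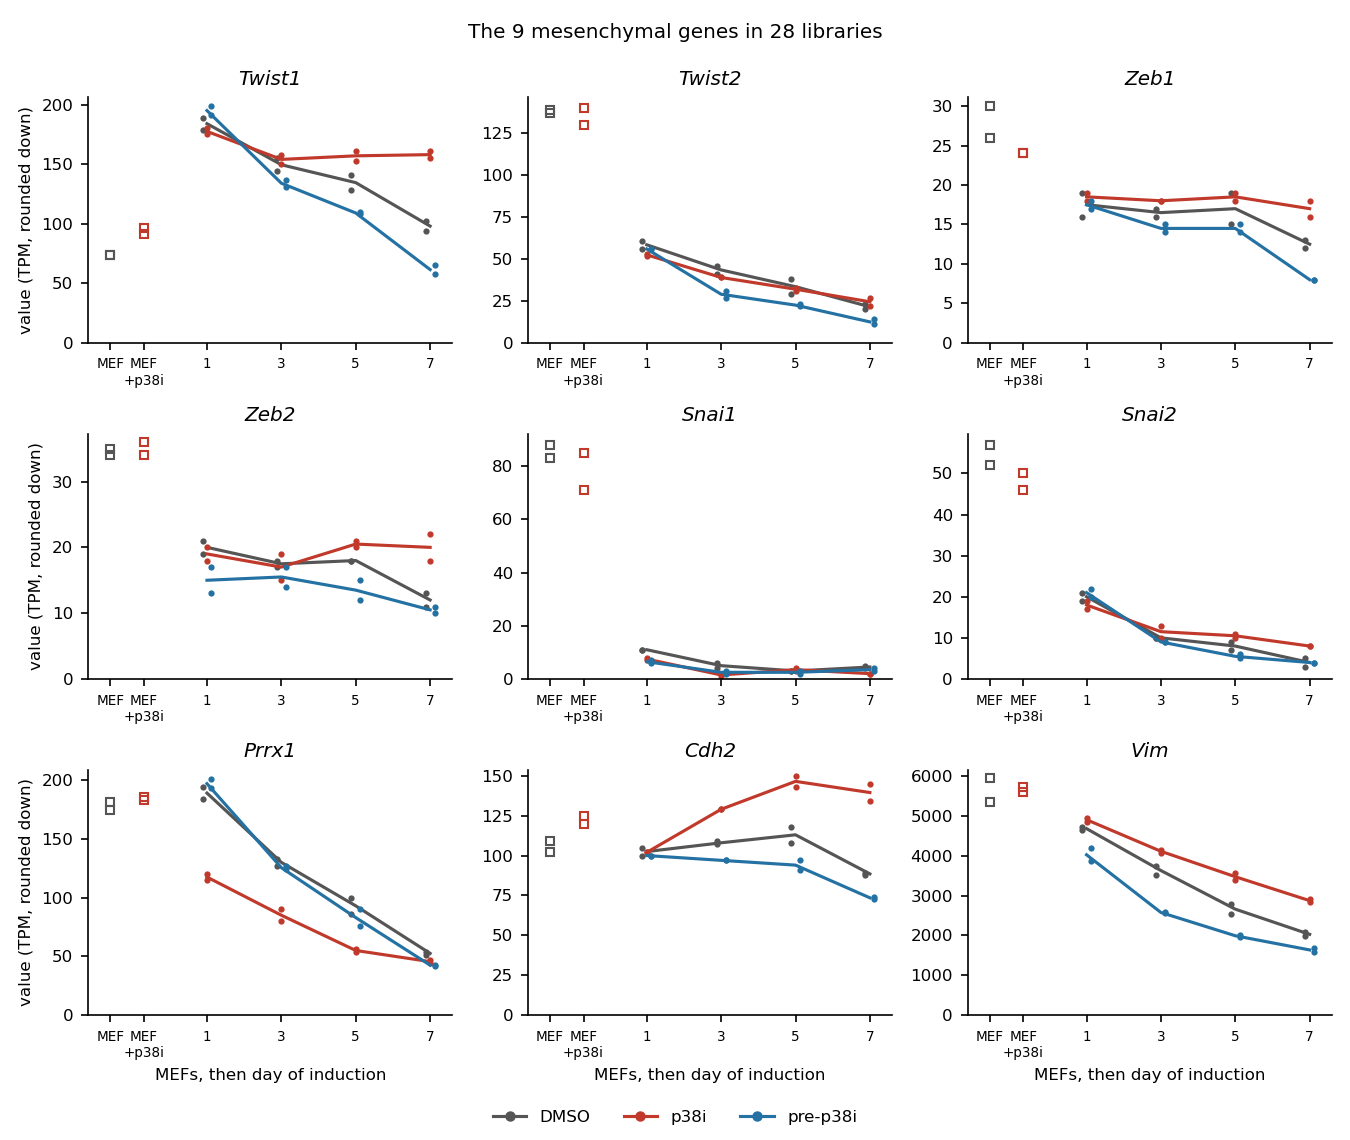
Level of each of the 9 genes (y axis, TPM rounded down, from 0) in MEFs, p38i-treated MEFs and on days 1, 3, 5 and 7 of induction (x axis). Points are libraries, squares MEFs, and lines join the means of 2 libraries in DMSO (grey), p38i (red) and pre-p38i (blue). On day 7 in p38i, Twist1 stood at 155 and 161 against 94 and 102 in DMSO, while Prrx1 in p38i was below DMSO from day 1.

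p38i during induction was accompanied by higher levels of most of these genes by day 7, with Snai1 and Prrx1 as exceptions. On day 1 Prrx1 alone was called, lower, and at an unadjusted p under 0.05 Snai1 was lower too and none was higher (all genes: 3.47% higher, 12.6% lower). On day 3, Cdh2 and Vim were higher and Snai1 and Prrx1 lower (all genes: 5.22% higher, 16.2% lower). On day 5, Twist1, Cdh2 and Vim were higher and Prrx1 lower (all genes: 7.87% higher, 18.7% lower). On day 7, 6 genes were higher (Twist1, Zeb1, Zeb2, Snai2, Cdh2 and Vim) and Snai1 and Prrx1 were lower, while Twist2 was not called (all genes: 16.5% higher, 17.6% lower). Averaged over the 4 days, the same 6 genes were higher and the same 2 lower (all genes: 14.9% higher, 33% lower). Without DMSO replicate 1 on day 7, 5 of the 8 calls of that day were left. Fitted on the 4 libraries of a day alone, the calls numbered 1 on day 3, 0 on day 5 and 4 on day 7 (Twist1, Snai1, Cdh2 and Vim).

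p38i before induction gave no higher call among the 9 genes on any day by limma, and none at an unadjusted p under 0.05. The DMSO libraries are those of the p38i comparison. Snai1 and Vim were lower on day 1 (all genes: 5.4% higher, 6.24% lower). Twist2, Snai1, Cdh2 and Vim were lower on day 3 (all genes: 13.8% higher, 6.87% lower). On day 5, Twist1, Twist2, Zeb2, Snai2, Cdh2 and Vim were lower (all genes: 14.3% higher, 11.3% lower). On day 7, Twist1, Twist2, Zeb1, Prrx1, Cdh2 and Vim were lower (all genes: 15.4% higher, 14.5% lower). Over the 4 days 8 of 9 genes were lower, all but Snai2 (all genes: 27.3% higher, 17.7% lower). The day 1 count of 2 fell to 0 without DMSO replicate 1 or pre-p38i replicate 1 and to 1 without DMSO replicate 2. The day 3 count of 4 fell to 2 without DMSO replicate 1 or pre-p38i replicate 2, and the day 5 count of 6 fell to 3 without DMSO replicate 2. Fitted on the libraries of a day alone, the counts were 0, 1 and 0 on days 1, 3 and 5 and 4 on day 7, where Twist2 (adjusted p = 0.0853) and Vim (adjusted p = 0.052) were not called.

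The p38i and pre-p38i libraries can be set against each other without the DMSO libraries. On day 7, 7 genes were higher in p38i, Snai1 was lower and Prrx1 was not called (all genes: 24.8% higher, 29.5% lower). The call of Snai1 (-0.58) was lost without p38i replicate 1 or 2 (-0.58 in both) or pre-p38i replicate 1 (-0.42) and with only the groups compared (adjusted p = 0.0648), and Prrx1 (0.10) was called higher after quantile normalization (0.18). Over the 4 days the same 7 were higher, Prrx1 was lower and Snai1 was not called (all genes: 21.9% higher, 43.4% lower).

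**Figure D2:**
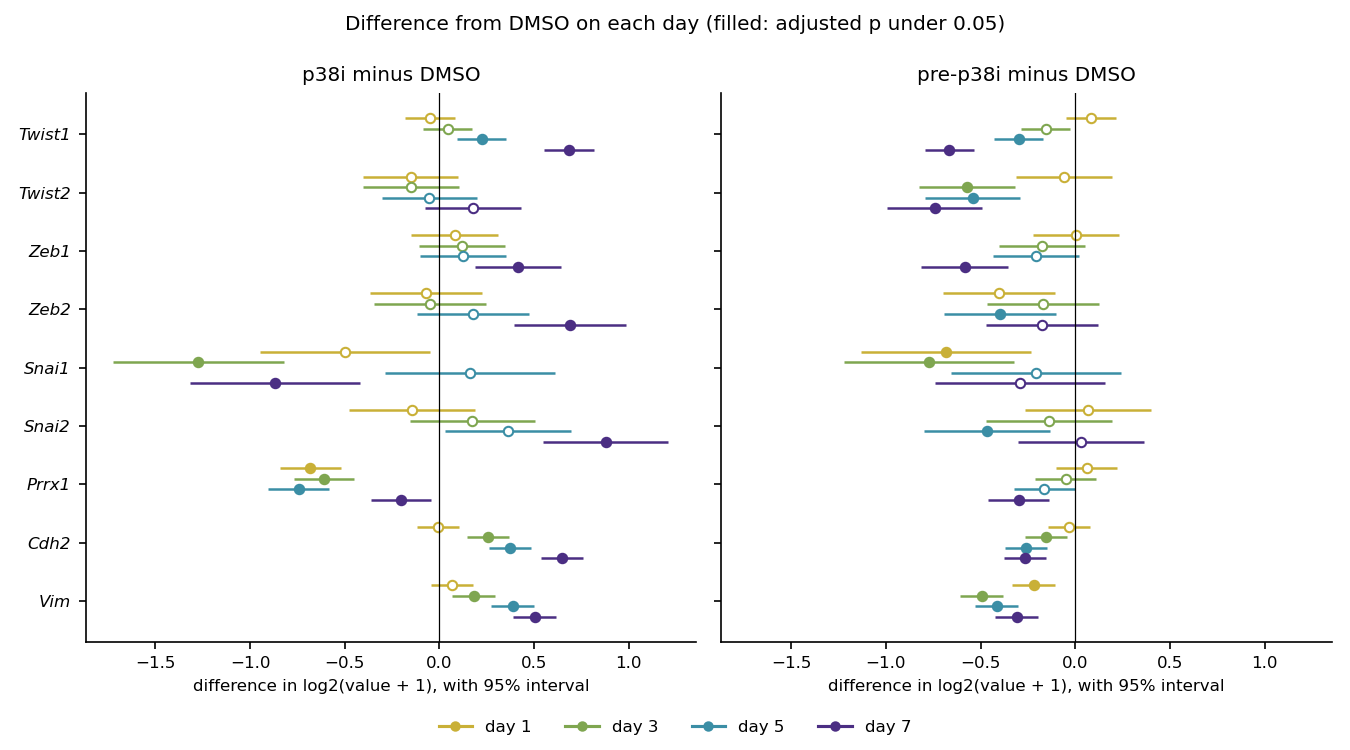
Difference from DMSO in log2(value + 1) (x axis) for each gene (y axis) on days 1, 3, 5 and 7 (colours), for p38i (left) and pre-p38i (right). Points are differences between means of 2 libraries, bars 95% intervals from limma, and filled points are called. In p38i the day 7 points lie to the right of zero for 7 of 9 genes, Twist2 uncalled. In pre-p38i they lie to the left for 8 of 9, Zeb2 and Snai1 uncalled.

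Snai1 (chr2:167538195-167542814, plus strand) and Snai2 (chr16:14705852-14709395, plus strand) encode Snail and Slug, zinc finger repressors that bind E-boxes of epithelial genes. Snai1 was at 88 and 83 in MEFs and at 11 and 11 on day 1 in DMSO, a log2 difference of -2.85 (SE 0.21, adjusted p = 6.8e-10). Its highest group mean was 57 times its lowest, the widest range of the 9. DMSO libraries then held 6 and 4 (day 3), 3 and 3 (day 5), and 5 and 4 (day 7). Levels in p38i were 8 and 7, 2 and 1, 4 and 3, and 2 and 2 on the same days. Levels in pre-p38i were 6 and 7, 3 and 2, 3 and 2, and 4 and 3. MEFs, with or without p38i, lay far above all induced libraries, and the induced groups differed by a few units of a value that was rounded to whole numbers. p38i was below DMSO on day 3 by 1.27 (SE 0.21, adjusted p = 0.000221) and on day 7, where the log2 difference was -0.87 (SE 0.21, adjusted p = 0.00381). Without DMSO replicate 1 the day 7 call was lost (-0.74, adjusted p = 0.0502). On day 5 the difference was not called (0.16, adjusted p = 0.634). In pre-p38i Snai1 was lower than in DMSO on day 1 (-0.68, adjusted p = 0.0452) and day 3 (-0.77, adjusted p = 0.0147). The day 1 call was lost under 8 alternatives, among them each single library left out (-0.68 without either DMSO library, -0.59 and -0.78 without pre-p38i replicate 1 and 2), and the day 3 call was lost without DMSO replicate 1 (-0.53) or pre-p38i replicate 2 (-0.56).

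Snai2 fell more slowly. From 52 and 57 in MEFs it went to 21 and 19, 10 and 10, 7 and 9, and 3 and 5 on days 1, 3, 5 and 7 in DMSO. p38i cells held 17 and 19, 13 and 10, 11 and 10, and 8 and 8. pre-p38i cells held 20 and 22, 9 and 9, 6 and 5, and 4 and 4. On day 7 both p38i libraries lay above both DMSO libraries, and the log2 difference was 0.88 (SE 0.16, adjusted p = 0.00025). The day 5 difference of 0.36 was not called (adjusted p = 0.103) but was called after quantile normalization (0.58, adjusted p = 0.0102). pre-p38i was called lower on day 5 alone (-0.46, adjusted p = 0.0372), a call lost without DMSO replicate 2 (-0.30) or pre-p38i replicate 2 (-0.35), with the replicate block (adjusted p = 0.0596) and with no filter (adjusted p = 0.0503). On day 7 its difference from DMSO was 0.03 with a 95% interval of -0.30 to 0.36. Over the 4 days it was -0.13, called only without DMSO replicate 1 on day 7 (-0.20).

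Zeb1 (chr18:5591860-5775467, plus strand) and Zeb2 (chr2:44983632-45117395, minus strand) encode ZEB factors, which repress Cdh1 and are themselves held down in epithelial cells by the miR-200 family. Zeb1 was at 30 and 26 in MEFs, and at 19 and 16, 17 and 16, 15 and 19, and 12 and 13 on days 1 to 7 in DMSO. With p38i during induction the values were 18 and 19, 18 and 18, 18 and 19, and 16 and 18. With p38i before induction the values were 17 and 18, 14 and 15, 14 and 15, and 8 and 8. The 3 conditions overlapped on day 1 and lay apart on day 7. There the log2 difference from DMSO was 0.41 (SE 0.11, adjusted p = 0.00597) in p38i and -0.58 (SE 0.11, adjusted p = 0.00041) in pre-p38i. The p38i call was lost without DMSO replicate 1 (0.36) or p38i replicate 2 (0.33). On day 5 pre-p38i was at -0.21, which was called without DMSO replicate 1 (-0.37).

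The level of Zeb2 was 34 and 35 in MEFs, and 21 and 19, 18 and 17, 18 and 18, and 11 and 13 over the days in DMSO. Under p38i they stood at 20 and 18, 15 and 19, 20 and 21, and 22 and 18. After pre-p38i they stood at 13 and 17, 17 and 14, 15 and 12, and 10 and 11. p38i libraries on day 7 were at the level of DMSO on day 1, and the log2 difference from DMSO on day 7 was 0.69 (SE 0.14, adjusted p = 0.00081). Over the 4 days it was 0.19 (adjusted p = 0.0351). This call was lost with the replicate block (adjusted p = 0.0722) and without any one of DMSO replicate 2 on days 1 and 3, either DMSO library on day 5, DMSO replicate 1 on day 7, p38i replicate 1 on days 1 and 7, and p38i replicate 2 on days 3 and 5 (0.15 to 0.19). pre-p38i was lower by 0.29 over the 4 days (SE 0.07, adjusted p = 0.00267) and was called on day 5 (-0.40, adjusted p = 0.0449). The day 5 call was lost under 7 alternatives, among them leaving out DMSO replicate 1 or 2 (-0.40 in both) or pre-p38i replicate 2 (-0.25). On day 1 pre-p38i was at -0.40, called only without pre-p38i replicate 2 (-0.58).

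Macrophages also express Zeb2 and Vim, and in whole cultures fewer cells of a type cannot be told apart from less RNA per cell. All 14 macrophage markers had a mean of at least 1 on day 7 in DMSO, 13 in p38i and 12 in pre-p38i, with summed levels of 438 to 450, 287 to 338 and 145 to 151. Their sum in DMSO was highest on day 5, at 699 to 714, and was 350 to 368 in MEFs. The markers did not move together. From MEFs to day 5 in DMSO the mean of Lyz2 went from 153 to 265.5 and that of Csf1r from 14 to 3.5. By day 7 in DMSO, 5 of the 14 markers were above MEFs and 6 below (all genes: 43% higher, 23.8% lower). Compared with DMSO on day 7, 1 marker was higher and 8 were lower in p38i (all genes: 16.5% higher, 17.6% lower). In pre-p38i 13 of 14 were lower on that day (all genes: 14.5% lower). Csf1r, the receptor that macrophages need to survive, was at 1 and 1 in DMSO, 0 and 1 in p38i and 0 and 0 in pre-p38i. Lyz2 was at 98 and 109, 135 and 113, and 9 and 7. On day 7 in p38i Zeb2 and Vim were above DMSO while the markers' sum was below it. In pre-p38i the markers' sum was below DMSO, Vim was lower and Zeb2 was not called on day 7, and the part of macrophages in these differences was not tested. The 9 fibroblast markers, which include collagens, summed to 1413 to 1497 on day 7 in DMSO, 1561 to 1615 in p38i and 784 to 838 in pre-p38i. On earlier days the order differed. The sums on days 1, 3 and 5 were 3638 to 3851, 3558 to 3856 and 2227 to 2532 in DMSO, 2490 to 2511, 1873 to 1932 and 1735 to 1740 in p38i, and 2609 to 2714, 2498 to 2573 and 1405 to 1529 in pre-p38i. In p38i 7, 8 and 6 of the 9 markers were lower than in DMSO on days 1, 3 and 5 (all genes: 12.6%, 16.2% and 18.7% lower). Their median log2 difference was -1.06 on day 3. On day 7 none was lower and 2 were higher (all genes: 17.6% lower, 16.5% higher). In pre-p38i 4, 6, 8 and 9 of the 9 were lower on days 1, 3, 5 and 7 (all genes: 6.24%, 6.87%, 11.3% and 14.5% lower). The part of these markers in the differences of the 9 genes was not tested. Of 6 endothelial markers Emcn was at 0 in all libraries, Pecam1 and Cdh5 reached at most 2 and Kdr at most 9. Tek, a receptor of endothelial cells, was at 0 in MEFs and on day 7 at 57 and 58 in DMSO, 67 and 61 in p38i and 59 and 63 in pre-p38i. Of the neural markers Elavl3 was at 0 throughout, and Sox10 and Foxd3 reached at most 1. Tubb3, a tubulin of neurons, was at 52 and 55 in MEFs and on day 1 at 243 and 222 in DMSO, 344 and 383 in p38i and 104 and 114 in pre-p38i.

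Twist1 (chr12:33957671-33959817, plus strand) and Twist2 (chr1:91801461-91848028, plus strand) encode closely related basic helix-loop-helix factors of mesenchyme. Twist1 rose between MEFs and day 1 of induction. It was at 74 and 74 in MEFs and at 189 and 179 on day 1 in DMSO, a log2 difference of 1.302 (SE 0.06, adjusted p = 6.02e-13). It then declined in DMSO through 155 and 144, then 141 and 128, to 94 and 102 on day 7. The p38i libraries were at 180 and 175, 158 and 150, 161 and 153, and 155 and 161, with no overlap with DMSO on days 5 and 7. The pre-p38i libraries were at 191 and 199, 131 and 137, 108 and 110, and 65 and 58. The day 7 libraries of pre-p38i were the lowest of all 28, below MEFs. From DMSO on day 7 the log2 difference was 0.68 (SE 0.06, adjusted p = 9.98e-08) in p38i and -0.66 (SE 0.06, adjusted p = 1.23e-07) in pre-p38i. The day 5 difference in p38i, 0.22 (adjusted p = 0.0123), was no longer called without DMSO replicate 2 (0.15) or p38i replicate 1 (0.19). In pre-p38i Twist1 was lower on day 5 (-0.30, adjusted p = 0.00139), and on day 3 it was at -0.16, called after quantile normalization (-0.22). Compared with MEFs, pre-p38i on day 7 was lower (log2 difference -0.27, SE 0.06, adjusted p = 0.000865). With only these groups in the fit this call was lost (adjusted p = 0.0629), and the difference was -0.41 to -0.18 over the alternatives.

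Twist2 went the other way between MEFs and day 1. It was at 137 and 139 in MEFs and at 61 and 56 on day 1 in DMSO (log2 difference -1.23, SE 0.12, adjusted p = 3.78e-08). It went on to 46 and 41, 29 and 38, and 23 and 20 on days 3, 5 and 7. Levels in p38i were 52 and 53, 39 and 39, 33 and 31, and 27 and 22, and p38i was not called against DMSO on any day. The 95% interval of the day 7 difference, -0.08 to 0.43, includes rises of the size seen for Zeb1. Levels in pre-p38i were 56 and 56, 31 and 27, 23 and 22, and 11 and 14. From day 3 onward the pre-p38i libraries lay below those of DMSO. The log2 difference was -0.57 on day 3 (adjusted p = 0.00217), -0.54 on day 5 (adjusted p = 0.0024) and -0.74 on day 7 (SE 0.12, adjusted p = 0.000103). Without DMSO replicate 2 the day 5 call was lost (-0.35), and with only the groups compared the day 7 call was lost (adjusted p = 0.0853). An antisense gene that overlaps Twist2, Gm29100, shares 1468 identical bases with it and had values of 0 to 1. Counting is not stated to use strand, and reads of the pair could not be told apart without it.

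The ratio of Twist2 to Twist1, a measure chosen after their values were seen, is independent of library scaling. It was 1.85 and 1.88 in MEFs and 1.54 and 1.35 in p38i-treated MEFs. In DMSO it was 0.323 and 0.313 at day 1, and 0.245 and 0.196 at day 7. For p38i the ratio was 0.289 and 0.303 on day 1 and 0.174 and 0.137 on day 7, below both DMSO libraries on both days. For pre-p38i the ratio was 0.293 and 0.281 on day 1 and 0.169 and 0.241 on day 7, where it overlapped DMSO. Twist2 was thus the more abundant of the pair in MEFs and Twist1 in all induced libraries.

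Prrx1 (chr1:163245119-163313710, minus strand) encodes a paired-related homeodomain factor of limb and craniofacial mesenchyme that marks many fibroblasts. It was at 181 and 175 in MEFs and was not called on day 1 in DMSO, at 194 and 184 (log2 difference 0.09, adjusted p = 0.364). It then went to 127 and 133, 86 and 100, and 51 and 54. With p38i during induction the values were 120 and 115, 80 and 90, 56 and 54, and 44 and 47. On day 1 it was the only one of the 9 called in p38i, where Snai1 was called with the replicate block alone, and no p38i library overlapped the DMSO libraries of its day. The log2 difference was -0.68 on day 1 (SE 0.08, adjusted p = 4.02e-06), -0.61 on day 3 (adjusted p = 8.09e-06), -0.74 on day 5 (adjusted p = 6.25e-07) and -0.20 on day 7 (SE 0.08, adjusted p = 0.0473). The day 7 call was lost in 8 of 10 alternatives, among them each single library left out (-0.24 and -0.16 without DMSO replicate 1 and 2, -0.16 and -0.25 without p38i replicate 1 and 2). In pre-p38i Prrx1 was 193 and 201, 127 and 124, 90 and 76, and 43 and 42. It was called lower than DMSO on day 7 (-0.30, adjusted p = 0.0059), except without DMSO replicate 2 (-0.26). Over the 4 days it was lower by 0.11 (adjusted p = 0.0214). That call was lost without DMSO replicate 1 on day 1 (-0.10), DMSO replicate 2 on day 5 (-0.09) or day 7 (-0.10), or pre-p38i replicate 2 on day 5 (-0.08). On day 5 it was at -0.16, called without DMSO replicate 1 (-0.27) or pre-p38i replicate 1 (-0.28) and after quantile normalization (-0.21).

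Cdh2 (chr18:16588877-16809246, minus strand) encodes N-cadherin, the adhesion molecule of mesenchymal and neural cells. Its level varied least of the 9, with a highest group mean 1.99 times the lowest. It was at 109 and 102 in MEFs, and at 105 and 100, 107 and 109, 108 and 118, and 89 and 88 over the days in DMSO. Under p38i they stood at 102 and 102, 129 and 129, 143 and 150, and 134 and 145. With p38i before induction the values were 100 and 100, 97 and 97, 97 and 91, and 74 and 73. From day 3 the p38i libraries stood above DMSO and the pre-p38i libraries below it, and the p38i libraries of days 3, 5 and 7 were above all MEF and DMSO libraries. The log2 difference in p38i was -0.01 on day 1 (adjusted p = 1), 0.25 on day 3 (adjusted p = 0.00162), 0.37 on day 5 (adjusted p = 2.98e-05) and 0.65 on day 7 (SE 0.05, adjusted p = 2.12e-08). In pre-p38i it was -0.03 on day 1, -0.15 on day 3 (adjusted p = 0.0462), -0.26 on day 5 (adjusted p = 0.00102) and -0.26 on day 7 (SE 0.05, adjusted p = 0.000801). The day 3 call in pre-p38i was lost under 6 alternatives, among them each single library left out (-0.17 and -0.14 without DMSO replicate 1 and 2, -0.15 without either pre-p38i library). Cdh2 was the 1 gene of the 9 that rose from day 1 to day 7 in p38i, by a log2 difference of 0.45 (SE 0.05, adjusted p = 6.35e-07).

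Vim (chr2:13573927-13582826, plus strand) encodes vimentin, the intermediate filament of mesenchymal cells, and was by far the most abundant of the 9. It was at 5943 and 5347 in MEFs, and at 4720 and 4640, 3734 and 3522, 2530 and 2787, and 1977 and 2076 over the days in DMSO. The p38i libraries were at 4853 and 4956, 4150 and 4072, 3557 and 3388, and 2904 and 2840. After pre-p38i they stood at 3859 and 4188, 2552 and 2598, 2022 and 1960, and 1680 and 1590. On each day the order was p38i, then DMSO, then pre-p38i, with no overlap between libraries. The day 1 difference of p38i from DMSO was not called and was -0.13 after quantile normalization. The log2 difference in p38i was 0.07 on day 1 (adjusted p = 0.45), 0.18 on day 3 (adjusted p = 0.0202), 0.39 on day 5 (adjusted p = 2.31e-05) and 0.50 on day 7 (SE 0.05, adjusted p = 6.86e-07). The day 3 value was 0 after quantile normalization and lost its call without DMSO replicate 2 (0.14) or p38i replicate 1 (0.17) or 2 (0.19). In pre-p38i the log2 difference was -0.22 on day 1 (adjusted p = 0.0116), -0.49 on day 3 (adjusted p = 2.45e-06), -0.42 on day 5 (adjusted p = 9.91e-06) and -0.31 on day 7 (SE 0.05, adjusted p = 0.000204). The day 1 call was lost without DMSO replicate 1 (-0.21) or pre-p38i replicate 1 (-0.16), and the day 7 call with only the groups compared (adjusted p = 0.052).

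Whether the course from day 1 to day 7 differed from that in DMSO was tested as the difference from DMSO on day 7 less that on day 1. In p38i it was positive and called for 6 genes (Twist1, Zeb2, Snai2, Prrx1, Cdh2 and Vim) and negative and called for none, also at an unadjusted p under 0.05 (all genes: 14.1% higher, 7.55% lower). Snai2 had the widest difference, 1.02 (SE 0.22, adjusted p = 0.00278), a call lost with only the groups compared in the fit (adjusted p = 0.059). For Zeb2 it was 0.76 (adjusted p = 0.00991), a call lost without DMSO replicate 1 (0.65) or p38i replicate 1 (0.62) on day 7. Prrx1, which was lower in p38i on all days, is in this count because its gap to DMSO was smaller on day 7 than on day 1 (0.48, adjusted p = 0.0035). For pre-p38i, 5 genes were negative and called (Twist1, Twist2, Zeb1, Prrx1 and Cdh2) and none positive, also at an unadjusted p under 0.05 (all genes: 7.25% higher, 9.43% lower). Twist1 led with -0.75 (SE 0.09, adjusted p = 6.71e-06). This count was 2 without DMSO replicate 2 on day 1 or 7 or pre-p38i replicate 1 on day 7, 3 without pre-p38i replicate 2 on day 1 or 7, and 3 with the replicate block or with only the groups compared, where Twist2 (adjusted p = 0.0621) and Zeb1 (adjusted p = 0.0529) were lost. The gap of Vim between pre-p38i and DMSO was present on day 1 and its change was not called (-0.09, adjusted p = 0.468).

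In MEFs that were not induced, p38i was followed by higher levels of Twist1 and Cdh2 and no lower call, also at an unadjusted p under 0.05 (all genes: 9.73% higher, 8.15% lower). Twist1 was at 91 and 96 with p38i and at 74 and 74 without it (log2 difference 0.33, SE 0.06, adjusted p = 0.000799). Cdh2 was at 125 and 120 against 109 and 102 (0.21, SE 0.05, adjusted p = 0.00749), a call lost without MEF replicate 2 (0.17) or p38i-treated MEF replicate 1 (0.18). Both genes were thus higher with p38i in MEFs and, by day 7, in induced cells, while Prrx1, at 186 and 183 with p38i, was not called in MEFs (0.05, 95% interval -0.11 to 0.21). Snai1 was 85 and 71, Snai2 50 and 46, Zeb1 24 and 24, Zeb2 36 and 34, Twist2 140 and 130 and Vim 5612 and 5721 in these cells, none of them called. Fitted on the 4 MEF libraries alone, neither Twist1 (adjusted p = 0.0557) nor Cdh2 (adjusted p = 0.143) was called. p38i-treated MEFs also had lower macrophage and fibroblast marker sums, 252 to 254 and 4264 to 4267, and the part of these in the differences was not tested.

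Set in order of their means, the 14 groups gave 13 neighbouring pairs for each gene. Between 5 (Vim) and 12 (Zeb2) of these pairs overlapped, so neighbours in the order often did not differ beyond their spread. MEFs, with or without p38i, were the top 2 groups for Twist2, Zeb1, Zeb2, Snai1, Snai2 and Vim. pre-p38i on day 7 was the lowest group for Twist1, Twist2, Zeb1, Zeb2, Prrx1, Cdh2 and Vim, and overlapped with DMSO on day 7 for Zeb2. For Snai1 the lowest group was p38i on day 3, at 2 and 1. The p38i libraries of day 7 lay within the range of the MEF and DMSO libraries for Twist1, Twist2, Zeb1, Zeb2, Snai2 and Vim, below it for Snai1 and Prrx1, and above it for Cdh2.

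Across the 14 group means, the genes did not share a single pattern. Twist2 and Snai2 were most alike (Pearson r = 0.97), and Twist2 and Vim were close (0.92). Twist1 and Twist2 had r = 0.08, Twist1 and Snai1 -0.37, and Prrx1 and Cdh2 0.01. Of 10667 genes, the one most like each member by this measure was Sdcbp for Twist1 (0.98), Loxl1 for Twist2 (0.99), Bag2 for Zeb1 (0.96), Synpo for Zeb2 (0.96), Klf5 for Snai1 (0.98), Myh10 for Snai2 (0.99), Klhl5 for Prrx1 (0.96), Mgrn1 for Cdh2 (0.92) and Sh3bgrl3 for Vim (0.99). Prrx2, the paralogue of Prrx1, was the third most like Snai1 (0.98). These correlations are descriptions, with no test, since groups of a condition follow each other in time.

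Cdh1 and Cdh2 can be set against each other within a library, by a ratio also chosen after the values were seen. Cdh1 was listed at 0 in the MEF libraries with and without p38i. On day 7 it was at 159 and 151 in DMSO, 71 and 70 in p38i and 268 and 263 in pre-p38i. The highest group mean of Cdh2 was only 1.99 times its lowest, so the ratio mostly followed Cdh1. Libraries of whole cultures cannot show whether single cells exchanged the cadherins. The ratio of Cdh1 to Cdh2 in DMSO went from 0.0952 and 0.11 on day 1 through 0.308 and 0.275 on day 3 and 0.62 and 0.568 on day 5 to 1.79 and 1.72 on day 7. Levels in p38i were 0.0294 and 0.0392, 0.109 and 0.093, 0.252 and 0.213, and 0.53 and 0.483. The pre-p38i libraries were at 0.13 and 0.13, 0.68 and 0.67, 1.42 and 1.51, and 3.62 and 3.6. Cdh1 thus exceeded Cdh2 by day 5 in pre-p38i and by day 7 in DMSO, and on no day in p38i. The 3 conditions lay apart on all 4 days.

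**Figure D3:**
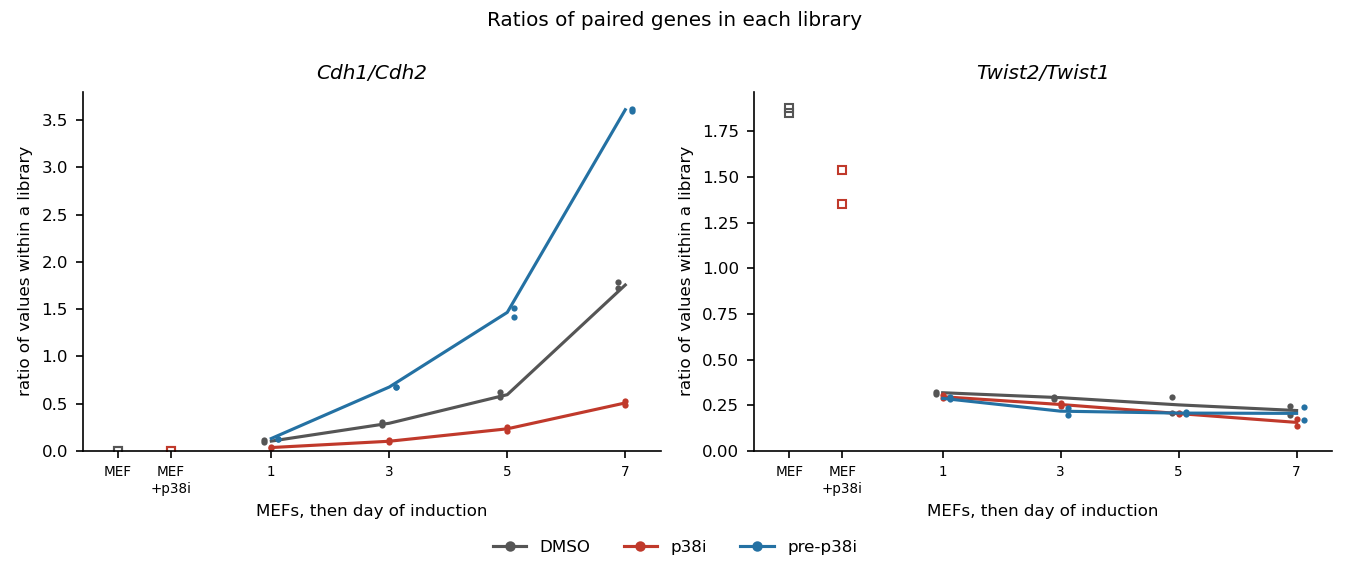
Ratio of Cdh1 to Cdh2 (left) and of Twist2 to Twist1 (right) within each library (y axis, from 0) in MEFs and by day of induction (x axis). Points are libraries, squares MEFs, and lines join means of 2 libraries. Cdh1/Cdh2 reached 3.62 and 3.6 in pre-p38i on day 7 and stayed at 0.53 and 0.483 in p38i, and Twist2/Twist1 dropped from 1.85 and 1.88 in MEFs to at most 0.323 in induced libraries.

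Other genes of the mesenchymal and epithelial programmes were read from 3 lists. On day 7 in p38i, 10 of 22 mesenchymal adhesion, receptor and filament genes were higher than in DMSO and 2 were lower, with a median log2 difference of 0.24 against 0 over all genes, of which 16.5% were higher and 17.6% lower. Those with the largest changes were S100a4, a calcium-binding protein of motile fibroblasts (-0.93), Cdh6, encoding K-cadherin (0.92), and Fn1, encoding fibronectin (0.78). In p38i 8 were lower and 0 higher on day 1, with a median of -0.11 against -0.085 over all genes (3.47% of all genes higher, 12.6% lower). On day 3, 10 were lower and 1 higher, with a median of -0.21 against -0.076 (all genes: 5.22% higher, 16.2% lower). On day 5, 6 were lower and 3 higher, with a median of 0.02 against -0.076 (all genes: 7.87% higher, 18.7% lower). In pre-p38i on day 7, 16 of 22 were lower and 1 was higher, with a median of -0.43 against 0.05 over all genes (15.4% higher, 14.5% lower). Fap (-1.36), Cdh13 (-1.20) and Cdh6 (-1.16) changed most.

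Of 27 other transcription factors of mesenchyme, 20 were tested, and on day 7 in p38i 2 were higher and 4 lower, with a median of 0.04 against 0 over all genes (16.5% higher, 17.6% lower). These counts are near the shares over all genes. On days 1 and 3 none of the 20 was higher and 6 were lower in p38i, with medians of -0.35 and -0.20. Over all genes 3.47% and 5.22% were higher and 12.6% and 16.2% lower on these days. On day 5, 2 were higher and 3 lower (all genes: 7.87% higher, 18.7% lower). On day 7 in p38i the largest changes were in Six2 (1.58), Prrx2 (-1.29) and Lef1 (-1.21), the last a Wnt effector. Six2 was at 2 and 2 against 0 and 0 in DMSO, and Prrx2 at 1 and 1 against 3 and 5. For these genes the change is a few units of a value rounded to whole numbers. In pre-p38i 5 were higher and 3 lower on day 7, with a median of -0.10 against 0.05 (all genes: 15.4% higher, 14.5% lower), led by Prrx2 (-1.0), Osr1 (-0.90) and Lef1 (0.74). From MEFs to day 7 in DMSO, 12 of 20 fell and 3 rose (all genes: 43% higher, 23.8% lower). Foxc2 (-4.80), Prrx2 (-4.51) and Hmga2 (-3.15) changed most. Prrx2 was at 111 and 111 in MEFs and at 3 and 5 on day 7 in DMSO, a loss already seen on day 1 (17 and 13), when Prrx1 was not called.

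Of 20 epithelial genes that E-box repressors are known to target or that work with such targets, 15 were tested. On day 7 in p38i 13 were lower than in DMSO and none higher, with a median of -1.20 against 0 over all genes (16.5% higher, 17.6% lower). The claudins Cldn4 (-2.48), Cldn7 (-2.01) and Cldn3 (-1.65), proteins of tight junctions, changed most. In pre-p38i 7 were higher and none lower, with a median of 0.69 against 0.05 over all genes (15.4% higher, 14.5% lower), and the largest changes were in Cldn3 (1.48), Krt8 (1.21) and Cldn4 (1.04). From MEFs to day 7 in DMSO all 15 rose (all genes: 43% higher, 23.8% lower), with Epcam (7.52), Cdh1 (7.28) and Krt8 (6.18) leading. On day 7 the called genes of this list moved against most of the 9 in p38i and in pre-p38i. In p38i 5, 8 and 7 of the 15 were lower on days 1, 3 and 5 (all genes: 12.6%, 16.2% and 18.7% lower). On those days 0, 2 and 3 of the 9 were higher in p38i, and 1, 2 and 1 were lower. Over all genes 3.47%, 5.22% and 7.87% were higher and 12.6%, 16.2% and 18.7% lower. Prrx1, on all 4 days, and Snai1, on days 3 and 7, were lower in p38i while epithelial genes were also lower. The lists are described by counts and medians and were not tested as sets.

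**Figure D4:**
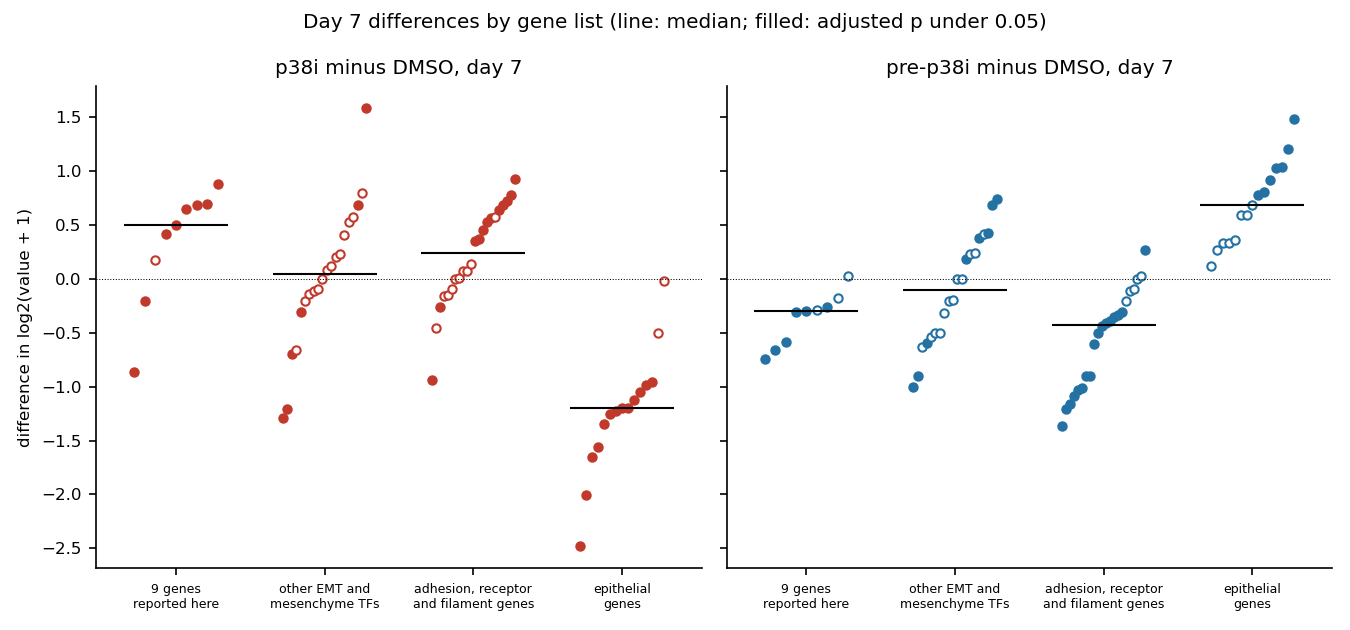
Difference from DMSO on day 7 in log2(value + 1) (y axis) for the 9 genes and 3 gene lists (x axis), in p38i (left) and pre-p38i (right). Each point is a gene, filled where called, and lines are medians. In p38i the median is 0.50 for the 9 genes and -1.20 for epithelial genes, and in pre-p38i -0.30 and 0.69.

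Library scaling bears on comparisons in which the median of all genes is off zero. Quantile normalization shifted that median by 0.12 for p38i against DMSO on day 3, 0.10 on day 5, 0.13 for p38i against pre-p38i over the days, -0.21 for DMSO day 1 against MEFs, -0.30 for day 7 against MEFs in DMSO and p38i, -0.33 in pre-p38i, and -0.16 and -0.13 for day 7 against day 1 in p38i and pre-p38i. The share of calls over all genes that were higher rose from 21.6% to 41.1% for p38i against DMSO on day 1, from 24.4% to 50% on day 3, from 29.6% to 52.7% on day 5 and from 31.2% to 54.4% over the days, and from 33.5% to 52% for p38i against pre-p38i over the days. It fell from 66.7% to 50.7% for pre-p38i on day 3, from 65.9% to 47.5% for DMSO day 1 against MEFs, from 64.4% to 44.8%, 62.3% to 45.3% and 68% to 48.3% for day 7 against MEFs in DMSO, p38i and pre-p38i, and from 59.9% to 45% for day 7 against day 1 in p38i. Of the 9 genes, none called in a comparison changed direction with this scaling, and Vim in p38i on day 3 went to 0. Cdh2 on day 1 in DMSO against MEFs (-0.04) became called lower (-0.13), as did Zeb1 for day 7 against day 1 in p38i (-0.12 to -0.29).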

How the data were processed

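RNA-seq libraries (28, in 14 groups of 2) were grouped by their labels, and 0 columns lacked a sample. The kit, the RNA extraction and the MEF medium are not the same in labels and paper. The score the authors deposited for each gene is a whole number and was read as TPM that the authors rounded down, from the library totals. The submitters' processing notes list Bowtie2 2.2.5, RSEM 1.3.0, mm10 and hg38. Depth is unknown.

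Genes with a mean of at least 1 were compared on log2(value + 1) by limma 3.58.1 (R 4.3.3; lmFit, then trended eBayes), in one model without a replicate block, and Benjamini-Hochberg adjusted over 13230 genes. The scripts were tested on simulated data. The 9 genes and the lists were chosen with earlier results of these data known. From each list at most the 3 called genes with the largest log2 difference are named, plus Cdh1, Prrx2 on its own levels, Csf1r and Lyz2, which were added after their values were seen. Some listed neural markers are not reported here. Likeness was Pearson's r over group means, among genes with a mean of at least 5. Positions are those of the deposited table, and 99.6% of its gene identifiers are in GENCODE M21 (GRCm38). Upstream sequences are RefSeq's, GRCm38.p6. Genes with at least 95% identity over 200.0 bases were sought with BLAST 2.17.0+. Plots used matplotlib 3.10.9. Alternatives were no filter, a mean of at least 5, a pseudocount of 0.1, only the groups compared, the replicate block, quantile normalization and leaving out each library.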

Additional observations from a re-analysis of the deposited data

Results flagged for a closer look

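The change from day 1 to day 7 differed from that in DMSO by a tested interaction in 11 cases (limma, adjusted over all genes). In p38i the log2 difference of differences was 0.74 for Twist1, 0.76 for Zeb2, 1.02 for Snai2, 0.48 for Prrx1, 0.66 for Cdh2 and 0.44 for Vim. In pre-p38i it was -0.75 for Twist1, -0.68 for Twist2, -0.59 for Zeb1, -0.36 for Prrx1 and -0.23 for Cdh2. Over all genes 14.1% were higher and 7.55% lower in p38i, and 7.25% higher and 9.43% lower in pre-p38i. The call of Zeb2 in p38i was lost without DMSO replicate 1 or p38i replicate 1 on day 7. In pre-p38i, the call of Twist2 was lost without pre-p38i replicate 1 on day 7 (-0.52) and that of Zeb1 without DMSO replicate 2 on day 1 (-0.47) or day 7 (-0.53). With only the groups compared in the fit, Snai2 in p38i (adjusted p = 0.059) and Twist2 (adjusted p = 0.0621) and Zeb1 (adjusted p = 0.0529) in pre-p38i were no longer called. That of Prrx1 was lost under 6 alternatives (-0.32 to -0.37), and that of Cdh2 with the replicate block and without any one of 7 of its 8 libraries (-0.19 to -0.24). Groups of 2 libraries are too small for a search for outlying libraries.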

How the results depend on the processing

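Over 22 comparisons and 9 genes, 2203 of 2376 values under an alternative kept their direction and side of the threshold. Of the rest, 125 lost a call, 12 gained one, and 36, none of them called, changed sign or went to 0. The counts of called genes that moved by over 1.5 times were, with only the groups compared, 1 for p38i on day 3, 0 on day 5 and 4 on day 7, 0, 1 and 0 for pre-p38i on days 1, 3 and 5, 0 for p38i-treated MEFs, and 3 for the pre-p38i interaction. With the replicate block the count was 2 for p38i on day 1 (Snai1, adjusted p = 0.0428, was gained) and 3 for the pre-p38i interaction. With a pseudocount of 0.1, no filter or quantile normalization, pre-p38i on day 1 had 1. Replicate numbers did not pair the libraries (correlations of deviations -0.0838 to 0.0874, 0 above 0.1).

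Quantile normalization reversed uncalled log2 differences of p38i from DMSO for Zeb2 (0.0371), Cdh2 (0.0316) and Vim (-0.1287) on day 1, Zeb2 on day 3 (0.0859), and Twist2 on day 5 (0.0447) and over the days (0.0254). It also reversed Snai1 in p38i against pre-p38i over the days (0.039), Twist2 (0.0163) and Vim (-0.0512) in p38i-treated MEFs, Zeb2 for day 7 against day 1 in p38i (-0.1123) and the Snai2 interaction in pre-p38i (0.0273).

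With one library left out, counts were 1 to 2 for p38i-treated MEFs, 0 to 2, 2 to 3 and 3 to 7 for pre-p38i on days 1, 3 and 5, 5 to 7 for p38i on day 7, and 2 to 5 for the pre-p38i interaction. Uncalled log2 differences that changed sign or went to 0 were, in p38i-treated MEFs, Zeb2 (-0.0203 to 0.0598), Vim (-0.0688 to 0.0836) and Twist2 (-0.0855 to 0.0206). For p38i against DMSO they were Cdh2 (-0.0414 to 0.0283), Zeb1 (-0.037 to 0.1975) and Zeb2 (-0.1428 to 0.0016) on day 1, Twist1 (-0.0098 to 0.0957) and Zeb2 (-0.2089 to 0.113) on day 3, Zeb1 (-0.037 to 0.2849), Twist2 (-0.2417 to 0.1368) and Snai1 (0 to 0.3219) on day 5, and Twist2 over the days (-0.0921 to 0.0025). For pre-p38i they were Zeb1 (-0.113 to 0.1215) and Snai2 (-0.0015 to 0.136) on day 1, Snai1 on day 5 (-0.415 to 0), Snai2 on day 7 (-0.263 to 0.3219) and the Snai2 interaction (-0.3303 to 0.2547). The remaining ones were Cdh2 from MEFs to day 1 in DMSO (-0.0883 to 0.0066) and Zeb2 for day 7 against day 1 in p38i (-0.0722 to 0.2034). Where 1 library was left, it was assumed to vary like the other groups. The causes were not tested. Values rounded to whole numbers limit precision most for Snai1 and Snai2, and unknown depth allows no counting interval.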
